A study of Zea mays with 12 samples.

Results

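Transcripts of 4 regulators of endosperm and aleurone cell fate were followed in developing maize seeds. The genes are nkd1 (naked endosperm 1, Zm00001d002654), nkd2 (naked endosperm 2, Zm00001d026113), o11 (Opaque11, Zm00001d003677) and dek1 (defective kernel 1, Zm00001d028818). They were chosen by identifier and not by their values, and all 4 were found among the 46430 identifiers of both count tables. Seeds of wild type (WT, AA in the titles) and of the mutant zmmsh7-2 (aa in the titles) were collected 7 and 14 days after pollination (DAP). The labels give the genotype of the mutant as an MSH7 knockout, and its titles name CRISPR. MSH7 belongs to the MutS family of mismatch repair proteins, and the study is about pollen fertility and yield. Each of the 4 groups held 3 RNA-seq libraries, with 16854595 to 21932590 counts each. The labels name the tissue as seed, so endosperm, embryo and maternal tissue were not separated, and a change in the share of a cell type cannot be told apart from a change of RNA per cell. Whether replicates came from separate plants or ears is not stated, so p-values rest on a spread between libraries that may be technical. How many independent mutant lines were used is not stated either, and MSH7 itself was not analysed here.

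The cereal endosperm differentiates into a starchy interior, an epidermis-like aleurone layer and smaller domains such as the basal transfer layer. In maize, NKD1 and NKD2 are zinc-finger transcription factors of the INDETERMINATE domain family, encoded by duplicate genes, and loss of both gives several disordered layers of poorly differentiated aleurone cells and affects storage products in the interior. O11 is a basic helix-loop-helix transcription factor of the endosperm that is known to act on nkd2 among its targets, and its loss gives small, opaque kernels. DEK1 is a large membrane protein with a calpain protease domain, and aleurone is missing from kernels that lack it. The transcription factors act in the nucleus on other genes, and DEK1 is thought to act at the cell surface, in the perception of a cell's outer position.

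The level of nkd1 was lowest in the mutant at 7 DAP and highest in WT at 14 DAP. Its values, in CPM (read counts scaled to a common library size with the TMM factors of all 12 libraries), were 52.1, 46.7 and 48.1 in WT at 7 DAP, and 23.3, 20.1 and 23.7 in the mutant at 7 DAP. At 14 DAP they were 764, 771 and 725 in WT, and 516, 515 and 516 in the mutant. No 2 of the 4 groups overlapped, and the order was mutant at 7 DAP, WT at 7 DAP, mutant at 14 DAP, WT at 14 DAP. How many of all genes separate the libraries in this way was not counted. Lack of overlap is therefore description only, here and for the other genes below. Of all genes tested, 71.1% differed between the genotypes at 7 DAP and 63.8% at 14 DAP (edgeR adjusted p < 0.05).

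Its duplicate nkd2 was the scarcest of these transcripts in counts at 7 DAP, with 39 to 94 counts per library. The CPM values were 2.53, 4.13 and 3.43 in WT and 2.16, 1.96 and 2.21 in the mutant at that stage. At 14 DAP they were 200.1, 199 and 193 in WT and 211, 222 and 207 in the mutant. The groups did not overlap here either, but the order of the genotypes was opposite at the 2 stages, with WT higher at 7 DAP and the mutant higher at 14 DAP. The 3 WT libraries of 7 DAP were more scattered than any other group of any of the 4 genes, with an SD of 23.9% of the mean.

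For o11 the stage separated the libraries and the genotype did not. At 7 DAP the CPM values were 8.80, 7.69 and 7.17 in WT and 9.24, 8.39 and 8.68 in the mutant, and at 14 DAP they were 114, 112 and 107 in WT and 107, 109 and 95.7 in the mutant. The genotypes overlapped at either stage.

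The transcript of dek1 stayed within a narrow band in all 12 libraries. It was at 110.3, 113 and 111 CPM in WT and 97.5, 99.7 and 96.8 CPM in the mutant at 7 DAP, and at 121, 115 and 123 CPM in WT and 134, 122 and 127 CPM in the mutant at 14 DAP. The mutant lay below WT at 7 DAP with no overlap, while at 14 DAP the genotypes overlapped. Transcript lengths were not used here, so levels are compared between groups and never between the 4 genes.

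**Figure D1:**
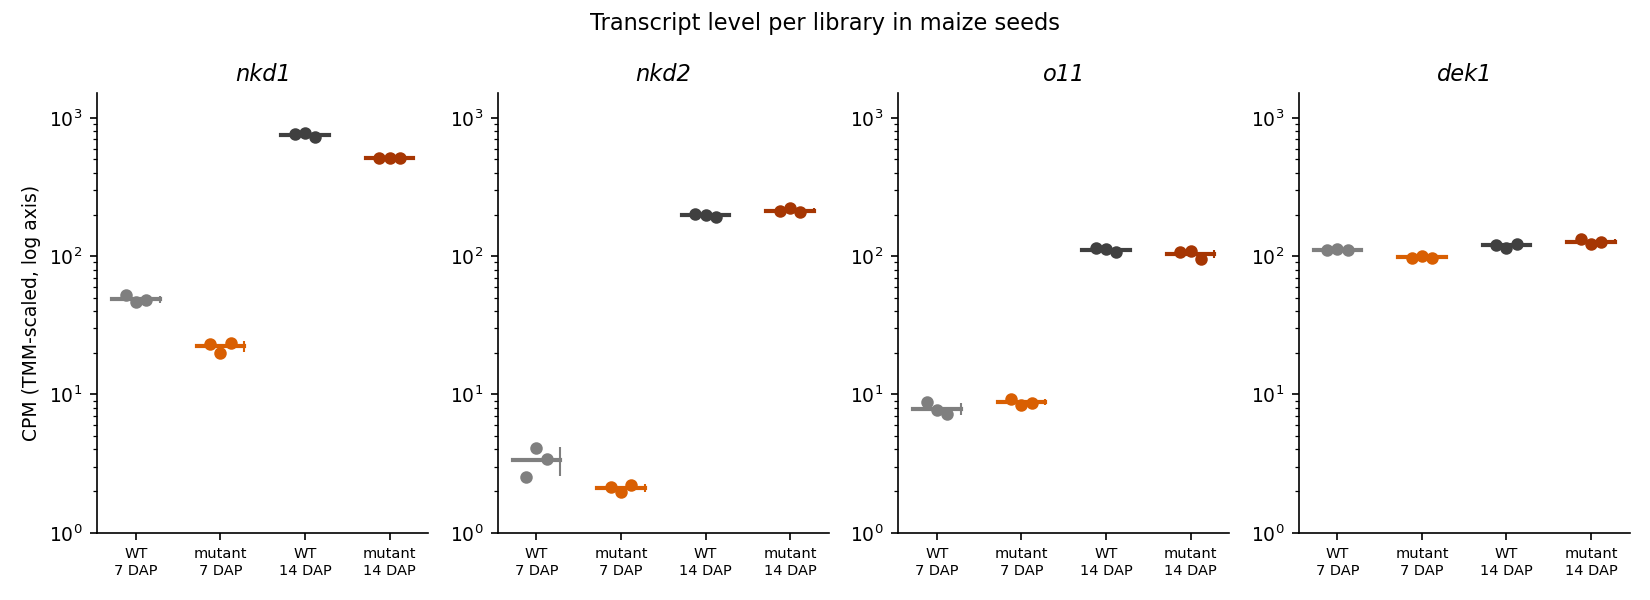
CPM of nkd1, nkd2, o11 and dek1 on a log axis in each of the 12 libraries. Points are libraries, horizontal lines are group means and thin vertical lines are 1 SD (n = 3 each). The 3 transcription factors lie far higher at 14 DAP than at 7 DAP in both genotypes, and dek1 lies between 96.8 and 134 CPM throughout.

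How these transcripts changed as the seed moved from early endosperm development to filling was asked within each genotype. The 3 transcription factor genes rose steeply and dek1 rose little. In WT, nkd1 rose from 49.0 ± 2.83 to 753 ± 24.7 CPM (SD, n = 3 each), which is 15.4-fold (edgeR adjusted p = 3.58e-93, log2 fold change 3.94 with SE 0.03). The rise of nkd2 was the steepest, from 3.36 ± 0.80 to 198 ± 3.60 CPM, or 58.4-fold (edgeR adjusted p = 1.02e-104, log2 fold change 5.87 with SE 0.06). o11 rose 14.1-fold, from 7.89 ± 0.83 to 111 ± 3.82 CPM (edgeR adjusted p = 3.7e-86, log2 fold change 3.82 with SE 0.06). For comparison, of the 25344 genes tested 0.88% rose more than nkd2 on the log2 scale, 2.14% more than nkd1 and 2.33% more than o11. The median absolute log2 change of all genes tested was 0.70 in WT.

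In the mutant the same 3 genes rose again. nkd1 went from 22.4 ± 2.01 to 516 ± 0.51 CPM (SD, n = 3 each; 23.0-fold, edgeR adjusted p = 1.28e-93, log2 fold change 4.52 with SE 0.04). nkd2 rose 100.5-fold, from 2.11 ± 0.13 to 213 ± 8.00 CPM (edgeR adjusted p = 7.05e-107, log2 fold change 6.65 with SE 0.07). o11 rose 11.8-fold, from 8.77 ± 0.43 to 104 ± 7.15 CPM (edgeR adjusted p = 2.87e-83, log2 fold change 3.56 with SE 0.06). All 4 genes were called higher at 14 DAP in either genotype. Of all genes tested 80.5% were called in WT, 40.8% higher and 39.8% lower, and 78.8% were called in the mutant, 39.3% higher and 39.6% lower. The stage comparisons in WT and in the mutant contrast different libraries. They come from the same fit of 12 libraries, with shared scaling and dispersions, so they are not independent tests. The stage also coincides with the table in which the counts were deposited, so stage and table cannot be told apart.

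The change of dek1 with stage was small and depended on the scaling. In WT it went from 111 ± 1.20 to 120 ± 4.32 CPM (SD, n = 3 each; edgeR adjusted p = 0.00497, log2 fold change 0.11 with SE 0.04), and in the mutant from 98.0 ± 1.51 to 127 ± 5.61 CPM (edgeR adjusted p = 8.36e-18, log2 fold change 0.38 with SE 0.04). With library totals as the only scaling, the median of all genes moved to −0.30 in either genotype, and dek1 was lower at 14 DAP in WT (log2 fold change −0.21), while it was still higher in the mutant (0.09). Relative to that median dek1 was higher at 14 DAP in both genotypes under either scaling. The WT call was also lost with DESeq2 (log2 fold change 0.07, adjusted p = 0.102), without WT replicate 1 of 14 DAP (0.08) and without WT replicate 3 of 14 DAP (0.07).

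**Figure D2:**
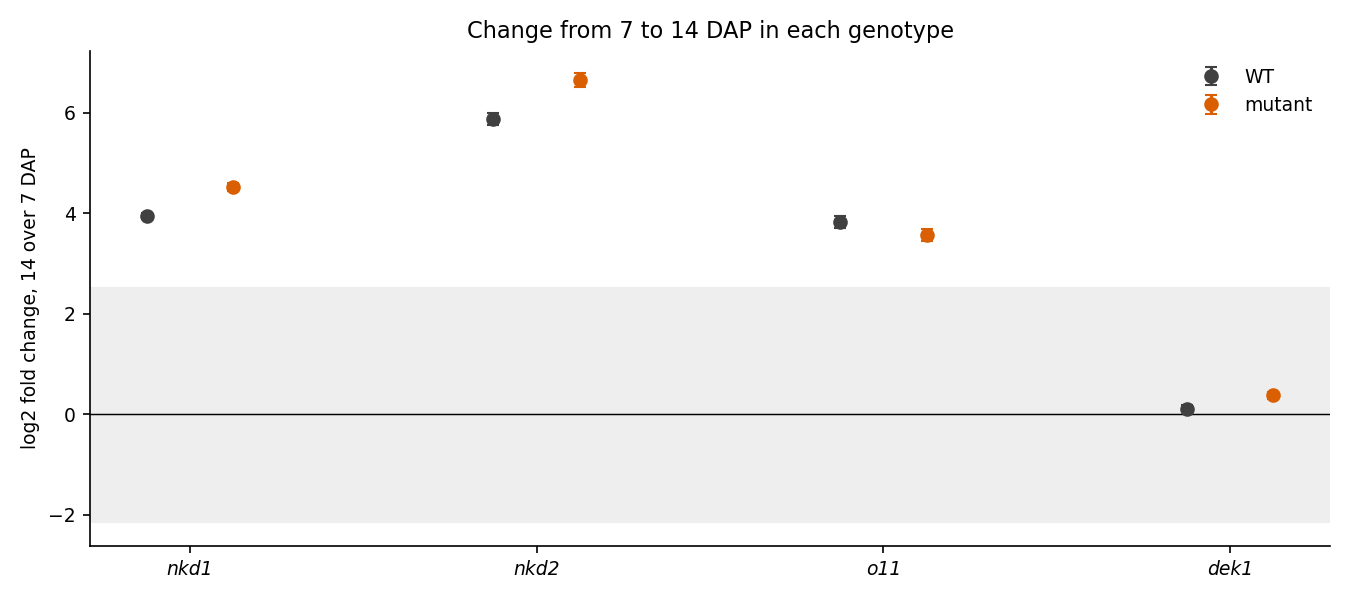
Log2 fold change of 14 over 7 DAP for the 4 genes, in WT and in the mutant, with approximate 95% intervals. The grey band runs from the 5th to the 95th percentile of all 25344 genes in WT (−2.16 to 2.51). nkd1, nkd2 and o11 lie above the band in both genotypes, and dek1 lies near 0.

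Which of the 4 transcripts differed between mutant and WT was asked within each stage. At 7 DAP nkd1 in the mutant stood at 0.459 times its WT level, at 22.4 ± 2.01 against 49.0 ± 2.83 CPM (SD, n = 3 each). This was 2.18-fold lower (edgeR adjusted p = 1.41e-36, log2 fold change −1.12 with 95% interval −1.24 to −1.01 and SE 0.06). nkd2 was 1.59-fold lower, at 2.11 ± 0.13 against 3.36 ± 0.80 CPM, with a wide 95% interval of −1.05 to −0.29 (edgeR adjusted p = 0.00134, log2 fold change −0.67 with SE 0.19). dek1 was 1.14-fold lower, at 98.0 ± 1.51 against 111 ± 1.20 CPM (edgeR adjusted p = 1.11e-06, log2 fold change −0.18 with SE 0.03). o11 did not pass the test, with 8.77 ± 0.43 CPM in the mutant and 7.89 ± 0.83 CPM in WT (edgeR adjusted p = 0.175, log2 fold change 0.16 with SE 0.11). Its 95% interval, −0.05 to 0.37, spans a ratio of mutant to WT of 0.964 to 1.29. Without WT replicate 3 its log2 fold change was 0.095 and without WT replicate 1 it was 0.24, neither called.

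These counts have to be read against a background in which small changes passed the test in most genes. Of 24096 genes tested at 7 DAP 71.1% were called, and 35.6% of the tested genes were lower and 35.5% higher. Being called, as 3 of the 4 genes were, is therefore no distinction in itself, and all 3 were lower. With the sign kept, 7.19% of all genes had a lower log2 fold change than nkd1 and 15.2% a lower one than nkd2. In the same ranking dek1 and o11 lay in the middle of the distribution. With the sign left out, 88.0% of genes changed less than nkd1 and 72.1% less than nkd2. The median log2 fold change was −0.43 over the 4 genes and 0.01 over all genes tested. A replicate was left out in turn in 6 refits. nkd1 lay between −1.16 and −1.06 and nkd2 between −0.84 and −0.49 in these, both called each time.

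At 14 DAP nkd1 was again lower in the mutant, at 516 ± 0.51 against 753 ± 24.7 CPM (SD, n = 3 each). The difference was 1.46-fold (edgeR adjusted p = 3.87e-36, log2 fold change −0.54 with 95% interval −0.60 to −0.49 and SE 0.03). nkd2 was 1.08-fold higher, at 213 ± 8.00 against 198 ± 3.60 CPM (edgeR adjusted p = 0.00124, log2 fold change 0.11 with SE 0.03). With library totals only, the log2 fold change of nkd2 was 0.20 and that of dek1 0.18, beside a median of all genes of 0.10. dek1 was at 127 ± 5.61 against 120 ± 4.32 CPM (edgeR adjusted p = 0.032, log2 fold change 0.089 with SE 0.04) and o11 at 104 ± 7.15 against 111 ± 3.82 CPM (edgeR adjusted p = 0.0351, log2 fold change −0.094 with SE 0.04). These were the smallest called differences among the 4 genes, and both calls were lost when certain single libraries were left out. For o11 the call was lost without WT replicate 1 (−0.076), without WT replicate 2 (−0.090), without mutant replicate 3 (−0.033), with DESeq2 (−0.098) and with library totals only (−0.0070). For dek1 it was lost without WT replicate 2 (0.058), without mutant replicate 1 (0.058) and with DESeq2 (0.086).

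Of 23811 genes tested at 14 DAP 63.8% were called, 32.1% lower and 31.7% higher. All 4 genes were called, 2 lower and 2 higher, which is close to that even split. The median log2 fold change over the 4 genes was −0.0027, against 0.01 over all genes tested. nkd1 changed most among the 4, with 18.3% of all genes at a lower log2 fold change. With the sign left out, 69.5% of all genes changed less than nkd1. Between 41.3% and 59.8% of genes had a lower value than o11, dek1 and nkd2.

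**Figure D3:**
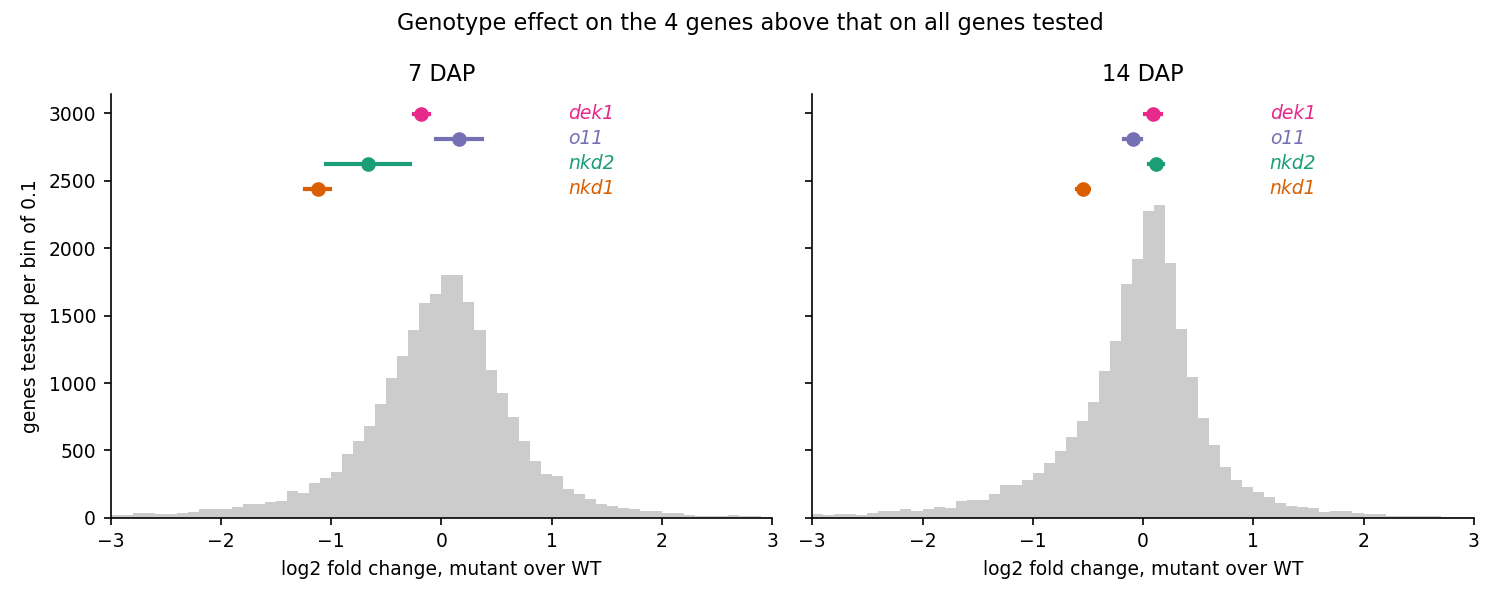
Log2 fold change of mutant over WT for the 4 genes (points, with approximate 95% intervals as lines) above the histogram of all genes tested at 7 DAP and at 14 DAP, in bins of 0.1. The axis is limited to −3 to 3, and the height of the points has no meaning. nkd1 lies on the left slope at both stages, at −1.12 and −0.54, and the 3 other genes lie near the centre at 14 DAP.

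Whether the genotype effect itself differed between the stages was tested in one fit of all 12 libraries. The deficit of nkd1 in the mutant was smaller at 14 DAP than at 7 DAP, by 0.58 in log2 units (SE 0.05, edgeR adjusted p = 5.18e-16). For nkd2 the effect went from lower at 7 DAP to slightly higher at 14 DAP, a difference of 0.78 (SE 0.15, edgeR adjusted p = 5.38e-06). dek1 followed the same order, lower and then slightly higher, with a difference of 0.27 (SE 0.05, edgeR adjusted p = 2.49e-06). For o11 the difference had the other sign, −0.25 (SE 0.10, edgeR adjusted p = 0.0305). The call of o11 was lost without WT replicate 2 (−0.24) or 3 (−0.19) of 7 DAP, mutant replicate 1 of 7 DAP (−0.22), WT replicate 1 of 14 DAP (−0.23) or mutant replicate 3 of 14 DAP (−0.19). It was also lost with limma-voom (−0.26), with DESeq2 (−0.25) and with library totals only (−0.23). In all, 46.8% of 25344 genes were called in this test, 22.8% with a higher effect at 14 DAP and 24% with a lower one. A more positive effect than that of nkd2 was seen in 9.5% of genes, and than that of nkd1 in 13.8%.

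The duplicate genes nkd1 and nkd2 were then set against each other within each library, where no scaling between libraries enters. The share of nkd1 among the reads of both genes was 95.4%, 91.9% and 93.4% in WT and 91.5%, 91.1% and 91.5% in the mutant at 7 DAP. At 14 DAP it was 79.2%, 79.5% and 78.9% in WT and 71.0%, 69.9% and 71.4% in the mutant. The share was thus lower in every library of 14 DAP than in any library of 7 DAP. It was also lower in each mutant library than in any WT library of the same stage. In WT it went from 93.5% ± 1.76 to 79.2% ± 0.27 and in the mutant from 91.4% ± 0.23 to 70.7% ± 0.79 (SD over 3 libraries each; p = 0.1 in a two-sided exact permutation test for each). The genotypes differed by 2.17 percentage points at 7 DAP and by 8.48 at 14 DAP, again with p = 0.1 in the two-sided exact permutation test, the smallest that 3 against 3 libraries allow. At 7 DAP the size of this difference rests on the scattered WT libraries, since the mutant minus WT difference was −1.25 points without WT replicate 1 and −3.01 points without WT replicate 2.

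At 7 DAP the share lay near its upper limit, so differences in points are not comparable in size between the stages. The ratio of nkd1 to nkd2 reads at 7 DAP was 15.3 ± 4.80 in WT and 10.6 ± 0.30 in the mutant. At 14 DAP it was 3.81 ± 0.06 in WT and 2.42 ± 0.09 in the mutant (SD, n = 3 each). The summed level of both genes was 951 ± 28.2 CPM in WT and 729 ± 7.49 CPM in the mutant at 14 DAP, and 52.3 ± 2.05 and 24.5 ± 2.14 CPM at 7 DAP (SD over 3 libraries each; p = 0.1 in a two-sided exact permutation test for each stage). The sum was thus lower in the mutant at 14 DAP although nkd2 alone was higher there. A longer transcript gives more reads, so the share is not one of molecules, and only its differences between groups are read here. The sources do not state how reads that align to both copies were counted, and the values of either gene are uncertain to that extent.

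**Figure D4:**
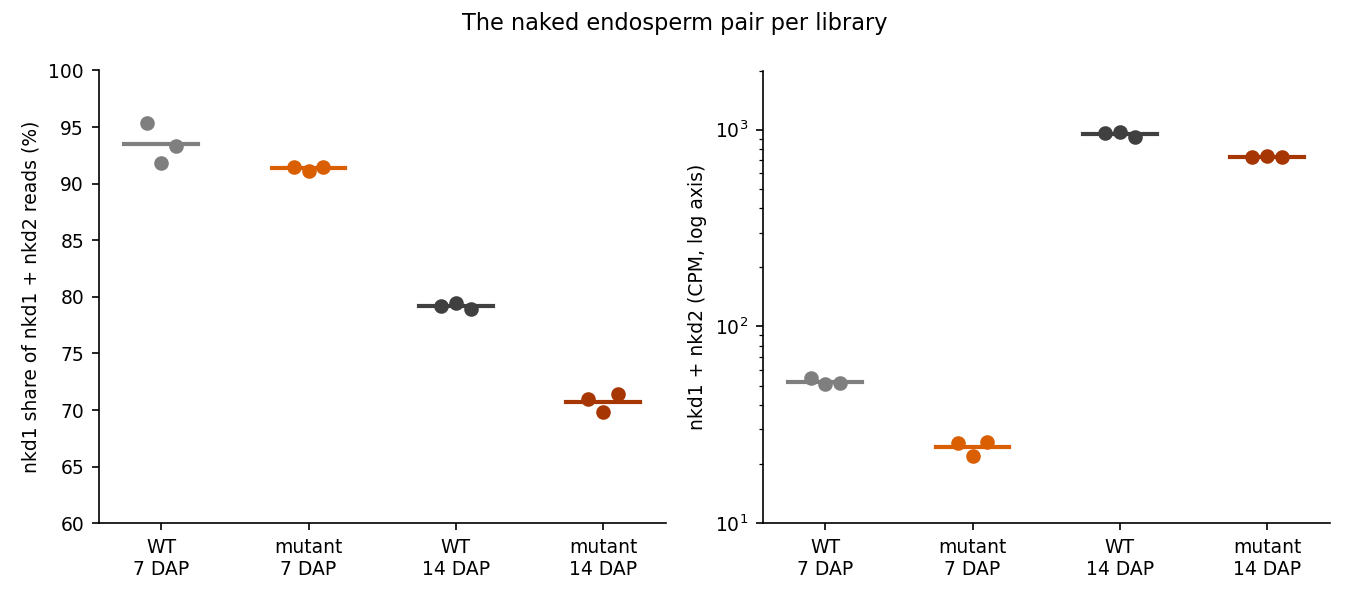
Left, share of nkd1 among the reads of nkd1 and nkd2 in each library (axis from 60 to 100%); right, their summed CPM on a log axis. Points are libraries and lines are group means (n = 3). The mutant libraries lie below the WT libraries of the same stage in both panels, and the share falls from 7 to 14 DAP.

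The genes whose pattern was most like that of each regulator were searched among the 25343 others, by Pearson's r of log2 CPM over the 12 libraries. The points share the step between 2 stages and the same libraries, so high values are common, and r is given as a description only. For nkd1 the closest was Zm00001d052407 (r = 0.999), at 41.9 ± 0.24 CPM in WT and 33.2 ± 1.95 CPM in the mutant at 7 DAP and at 110.3 ± 3.12 and 95.05 ± 1.17 CPM at 14 DAP (SD, n = 3 each). It shows the same order of the 4 groups on a smaller scale. For nkd2 the closest was Zm00001d009646 (r = 0.999), which rose from 1.09 ± 0.26 to 101 ± 0.38 CPM in WT and from 0.61 ± 0.13 to 109.9 ± 6.15 CPM in the mutant. For o11 it was Zm00001d045461 (r = 0.999), at 31.9 ± 3.43 CPM in WT and 26.9 ± 1.88 CPM in the mutant at 14 DAP and near 0 at 7 DAP. For dek1 it was Zm00001d032875 (r = 0.984), with 70.7 ± 2.32 and 52.5 ± 0.26 CPM at 7 DAP and 86.0 ± 1.83 and 96.5 ± 5.33 CPM at 14 DAP in WT and mutant. What these identifiers encode is not stated in the files.

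An r of at least 0.95 was reached by 2119 genes with nkd1, 2703 with nkd2 and 2834 with o11, or 8.36%, 10.7% and 11.2% of genes, and by 49 genes, 0.193%, with dek1. Among the 4 regulators r over the 12 libraries was 0.986 between nkd1 and nkd2, 0.991 between nkd2 and o11, 0.974 between nkd1 and o11, and between 0.811 and 0.875 for dek1 with the others. These values follow the step between the stages and most pairs had a negative r within at least 1 of them. Over the 6 libraries of 7 DAP, which form a cluster for each genotype, r was 0.797 between nkd1 and nkd2 but −0.78 between nkd2 and o11, −0.55 between nkd1 and o11 and −0.69 between dek1 and o11. At 14 DAP the 6 libraries gave −0.82 between nkd1 and nkd2, −0.16 between nkd2 and o11, 0.624 between nkd1 and o11 and −0.47 between dek1 and o11. With dek1, nkd1 had an r of 0.948 at 7 DAP and −0.71 at 14 DAP, and nkd2 of 0.853 and 0.354.

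**Figure D5:**
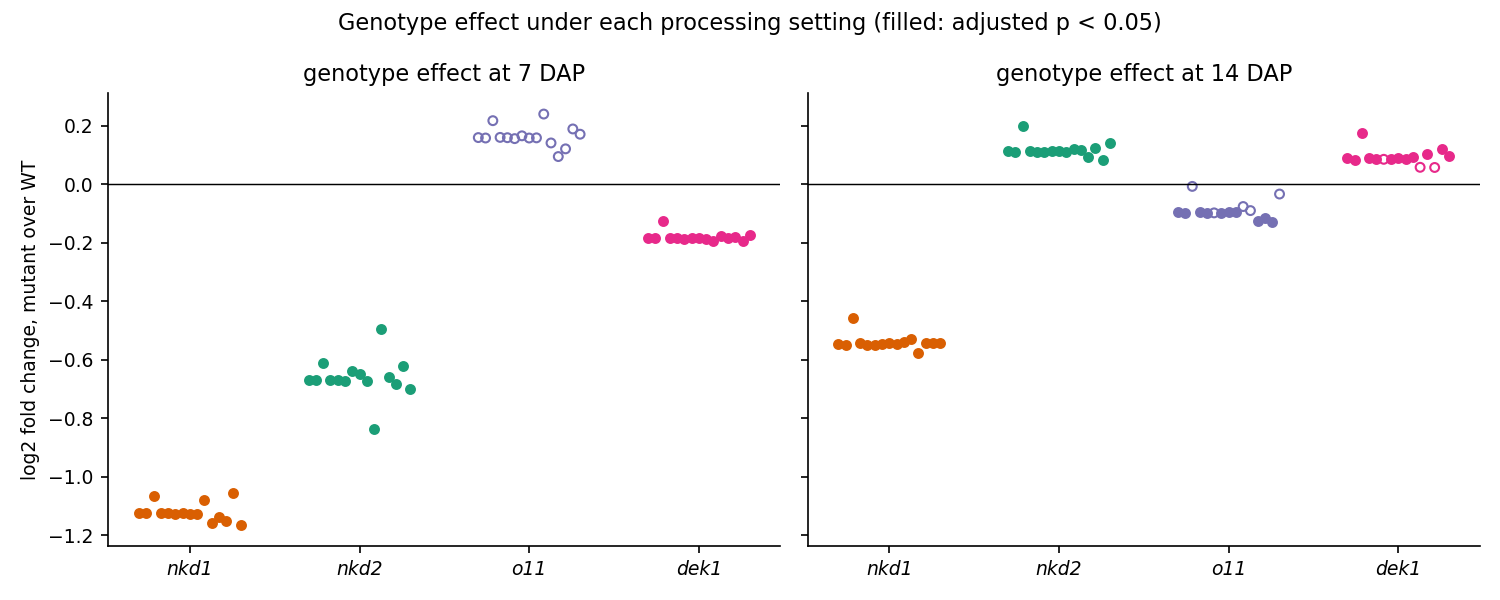
Log2 fold change of mutant over WT for each gene under the reported setting and every alternative (one point each), at 7 DAP and at 14 DAP. Filled points have an adjusted p below 0.05 and open points do not. nkd1, nkd2 and, at 7 DAP, dek1 are called in each, and o11 is called in none at 7 DAP.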

How the data were processed

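The authors deposited raw read counts, one table per stage, with no normalization. The genome build B73 RefGen_v4 and the tools featureCounts 1.6.4, HISAT2 2.2.1, Trimmomatic 0.39, DESeq2 and StringTie 1.3.6 are named in the submitters' processing notes. The sources do not state the strand setting or the treatment of multiply aligned reads. Columns were matched to samples by their descriptions, case kept.

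Counts were tested in R 4.3.3 with edgeR 4.0.16 (quasi-likelihood test, TMM factors, default filter by group, robust dispersions) on the whole table, with Benjamini-Hochberg adjustment over all genes tested and calls below 0.05. Genotypes were compared in fits of the 6 libraries of a stage, and stages and the difference between stages in a fit of 12 libraries. All 4 members passed the filter. The SE was taken as |log2 fold change| over the root of F, and intervals are 95%. Shares used exact permutation tests in SciPy 1.17.1. Replicates differed by more than sampling noise (chi-square per degree of freedom 1.66 to 2.38).

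Alternatives were RLE factors, library totals, no filter, a stricter filter (1 CPM in 3 libraries), DESeq2 1.42.0, limma-voom (limma 3.58.1), a replicate block, all 12 libraries for the genotype comparisons and leaving out each replicate. The named genes are the 4 members and, for each, the gene most like it. The members were fixed by identifier and not by their values. Earlier results of these data were, however, known when the members and lists were chosen. The RefSeq table (Zm-B73-REFERENCE-NAM-5.0) lists all 4 names but contains 0 of the 44146 nuclear identifiers, so the pairing of name and identifier comes from the choice of members. The lists of other pathway genes and of cell type markers fixed by symbol, and levels per length and promoter motifs, were therefore not run. The most alike gene with a described name, to be given where the table names any, is not reported, since only 17 organelle genes could be named and r was at most 0.908.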

Additional observations from a re-analysis of the deposited data

Results flagged for a closer look

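The effect of the genotype differed between 7 and 14 DAP for all 4 genes in the test of that difference, where 46.8% of all genes tested were called. The difference (14 DAP minus 7 DAP, log2 scale) was 0.58 for nkd1, 0.78 for nkd2 and 0.27 for dek1, called in every alternative run. It was −0.25 for o11, a call that was lost in 8 alternatives, with adjusted p up to 0.153.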

How the results depend on the processing

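For nkd1 and nkd2 every comparison kept its direction and its call in all alternatives run. The genotype effect on nkd1 ranged from −1.16 to −1.06 at 7 DAP and from −0.58 to −0.46 at 14 DAP, and o11 at 7 DAP stayed uncalled (0.095 to 0.24, adjusted p up to 0.487). With library totals only, dek1 in WT reversed to −0.21, while the genotype effect on o11 at 14 DAP (−0.0070) and its difference between stages (−0.23) were no longer called. With DESeq2 the lost calls were o11 (−0.098) and dek1 (0.086) at 14 DAP, the difference of o11 (−0.25) and dek1 by stage in WT (0.073), and with limma-voom the difference of o11 (−0.26). Without 1 replicate, o11 at 14 DAP ran from −0.13 to −0.033, dek1 at 14 DAP from 0.058 to 0.12, the difference of o11 from −0.34 to −0.19 and the stage change of dek1 in WT from 0.070 to 0.12. The cause of these losses was not tested. Counts of genes called stayed within 1.5 times throughout. With library totals the split of higher to lower calls was 9558 to 7694 for genotype at 7 DAP, 9532 to 6389 at 14 DAP, 7480 to 13242 for stage in WT and 7202 to 13182 in the mutant.

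The labels do not state whether replicate numbers pair the libraries. Deviations of same-numbered libraries correlated at most at 0.041, which does not decide it. At 7 DAP each library correlated best with its own number in the other genotype, which is a hint from the data and not the design. The replicate block changed no call, with 17130 genes called at 7 DAP against 17137 and 15235 at 14 DAP against 15199. With the block the genotype effect on nkd1 was −1.13 at 7 DAP and −0.54 at 14 DAP. For the share of nkd1 a block leaves the difference as it is by construction (exact sign-flip permutation test p = 0.25, the smallest possible), so it says nothing of its stability. Without 1 library the share difference at 7 DAP ran from −3.01 to −1.25 points and at 14 DAP from −8.80 to −8.04. The most alike gene was another one in 6 of 8 alternatives. Depth limits nkd2 at 7 DAP, with 39 to 94 counts per library.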

Other observations

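The 10 identifiers before and the 10 after each gene in the deposited order were examined as a description chosen after the values of the 4 genes were known. Over all genes tested 71.1% were called at 7 DAP and 63.8% at 14 DAP. Around nkd1, 9 of the 20 were tested at 7 DAP, of which 4 were called higher and 5 lower in the mutant, and 1 had a lower log2 fold change than nkd1. At 14 DAP 9 were tested, 4 were called higher and 1 lower, and 0 lay below nkd1. Around nkd2, 9 were tested at 7 DAP, with 3 higher, 2 lower and 0 below nkd2, and 10 at 14 DAP, with 6 higher, 2 lower and 4 below it. Around o11, 13 were tested at 7 DAP, with 5 higher, 1 lower and 8 below o11, and 14 at 14 DAP, with 7 higher, 3 lower and 4 below it. Around dek1, 13 were tested at 7 DAP, with 7 higher, 3 lower and 3 below dek1, and 14 at 14 DAP, with 3 higher, 5 lower and 11 below it.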
